A study of Mus musculus with 17 samples.

Results

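Metallothioneins are small cysteine-rich proteins that bind zinc and copper, and their genes are among the most inducible in mammalian cells. The set described here was every probe set that the array's annotation gave to exactly 1 of the symbols Mt1, Mt2, Mt3, Mtf1 and Slc30a1. That rule gave 7 probe sets for 5 genes, out of 20380 probe sets with exactly 1 symbol for 12393 genes. Mt1 and Mtf1 had 2 probe sets each, and Mt2, Mt3 and Slc30a1 had 1 each. The rule itself uses gene names and no measured value, but the genes were proposed with earlier results of these data known.

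The arrays held RNA of the tibialis anterior, which lifts the foot and consists mostly of fast fibres. The 5 fiona arrays came from mice that carry a utrophin transgene on the mdx background, so that they share the dystrophin mutation of the mdx mice. The 6 mdx arrays came from dystrophin-deficient mice without the transgene, and the 6 normal arrays came from wild-type muscle. All mice were labelled male and were killed at 56 days of age, each sample pooled the muscle of the left and right leg, and 8 µg of total RNA went into each labelling. The promoter that drives the transgene, and whether the fiona line descends from 1 founder, are not given in the sources used here. Utrophin is a relative of dystrophin that can take its place at the fibre membrane.

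Metallothioneins hold zinc in metal-thiolate clusters, buffer free zinc and scavenge oxidants. When zinc rises, the zinc-finger factor encoded by Mtf1 enters the nucleus and binds metal response elements, which switches on Mt1, Mt2 and the gene of the zinc exporter ZnT1, Slc30a1. Mt1 and Mt2 are also induced by glucocorticoids and by interleukin-6, and rise in wasting and inflamed muscle, whereas Mt3 is best known as the brain form.

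The start regions of Mt1, Mt2 and Slc30a1, on which MTF1 is known to act, are shown with that of Mt3 to compare how often each holds the MTF1 recognition core, whose searched letters were TGCACNC and TGCGCNC on both strands. Each run is RefSeq's window of 250 bases before to 50 bases after the annotated start on GRCm38.p6, on the plus strand, and capitals mark the core as it reads on that strand. They lie at chr8:94178839-94179138 for Mt1, chr8:94172368-94172667 for Mt2, chr8:94152357-94152656 for Mt3 and chr1:191906531-191906830 for Slc30a1.
Mt1: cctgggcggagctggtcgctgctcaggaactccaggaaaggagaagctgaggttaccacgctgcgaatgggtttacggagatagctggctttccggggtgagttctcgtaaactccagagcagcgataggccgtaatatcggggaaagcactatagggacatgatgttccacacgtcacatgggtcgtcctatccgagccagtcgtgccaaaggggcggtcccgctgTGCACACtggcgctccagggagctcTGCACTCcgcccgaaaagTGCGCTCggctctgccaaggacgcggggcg
Mt2: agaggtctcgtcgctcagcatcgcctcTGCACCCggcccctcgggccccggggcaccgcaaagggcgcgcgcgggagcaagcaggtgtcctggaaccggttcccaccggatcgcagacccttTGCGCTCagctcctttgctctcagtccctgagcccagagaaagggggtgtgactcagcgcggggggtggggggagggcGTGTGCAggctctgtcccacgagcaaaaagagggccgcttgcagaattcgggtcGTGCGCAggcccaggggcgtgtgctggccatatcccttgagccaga
Mt3: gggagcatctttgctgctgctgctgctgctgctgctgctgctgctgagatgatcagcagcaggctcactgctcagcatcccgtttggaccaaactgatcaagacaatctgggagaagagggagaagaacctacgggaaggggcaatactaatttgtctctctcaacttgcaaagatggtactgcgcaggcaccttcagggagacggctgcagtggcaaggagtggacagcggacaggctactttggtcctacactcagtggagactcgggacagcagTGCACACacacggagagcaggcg
Slc30a1: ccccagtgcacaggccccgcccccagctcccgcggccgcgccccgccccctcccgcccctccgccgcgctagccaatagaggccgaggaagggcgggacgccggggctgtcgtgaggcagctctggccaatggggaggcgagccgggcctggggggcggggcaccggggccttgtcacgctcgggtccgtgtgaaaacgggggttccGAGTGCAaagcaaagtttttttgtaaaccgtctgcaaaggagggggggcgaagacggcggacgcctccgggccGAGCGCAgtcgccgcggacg

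The Mt2 window held 4 cores, the Mt1 window 3, the Slc30a1 window 2 and the Mt3 window 1, and the Mtf1 window on chromosome 4 held 0. Among 32851 RefSeq windows of this length, 25.7% held at least 1 core, 7.11% at least 2, 1.97% at least 3 and 0.518% at least 4. The antioxidant core TGACNNNGC stood once each in the Mt2 and Slc30a1 windows, apart from the metal response cores, and in 12.4% of all windows. The STAT letters TTCNNNGAA, in 8.30% of all windows, and the E-box CACGTG, in 7.15%, stood in none of the 5 windows. A match describes letters and is no measurement of binding. Bases outside these windows of 300 were not searched, so the counts depend on the annotated start and do not describe whole promoters.

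Of 3 Dmd probe sets, the one with the lowest adjusted p in mdx against normal averaged 3.39 ± 0.14 in fiona, 3.35 ± 0.10 in mdx and 6.64 ± 0.20 in normal muscle, on the log2 scale (SD, n = 5, 6 and 6). Of 3 Utrn probe sets, the one with the lowest adjusted p in fiona against mdx averaged 4.30 ± 1.90 in fiona, 2.07 ± 0.02 in mdx and 2.12 ± 0.04 in normal muscle, and the brightest was not called, at 6.57 in fiona and 6.98 in mdx muscle (adjusted p = 0.308). All 11 measured markers of mature muscle fibres lay above the arrays' bacterial control probe sets. Against the labelled sex, 7 arrays showed the female pattern of Xist without Y-linked signal, 4 of them fiona, 2 mdx and 1 normal, and mdx array 6 showed both. The arrays also fell into 2 sets by the sign of the largest component of their deviations from the group means, which carried 42.6% of that variance and was computed without the 7 probe sets. Set 1 held fiona arrays 1 and 4 and arrays 3, 4 and 5 of both the mdx and the normal group, and set 2 held the other arrays. No label gives a batch, so results are also given within each set and without the female-pattern arrays. The level of 15 unspiked bacterial control probe sets, which should detect nothing, was 2.75 to 2.99 in fiona, 2.65 to 2.75 in mdx and 2.64 to 2.87 in normal arrays.

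In mdx muscle Mt1 and Mt2 were far above normal muscle. Mt1 was 8.84-fold and Mt2 15.1-fold higher, and no mdx array overlapped a normal array for either gene. Of the 7 probe sets, 2 were called in mdx against normal at an adjusted p under 0.05 (limma, Benjamini-Hochberg over all 20380 probe sets), and both were higher. Over all probe sets 4.05% were called, 2.68% higher and 1.37% lower, and the groups did not overlap for 4.52%. The genes Mt3, Mtf1 and Slc30a1 were not called.

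Mt1 encodes a metallothionein made in nearly all tissues. On its brighter probe set, the mdx arrays ran from 10.2 to 11.3 on the log2 scale with a median of 11.1, and the normal arrays from 7.08 to 8.50 with a median of 7.80. The lowest mdx array stood 1.72 above the highest normal array. The means were 10.94 ± 0.41 in mdx and 7.80 ± 0.75 in normal muscle (SD, n = 6 each), a log2 difference of 3.14 (SE 0.31, 95% confidence interval 2.49 to 3.80, limma adjusted p = 1.96e-05). The two-sided exact permutation test gave p = 0.002165, the smallest that 924 regroupings of 6 and 6 arrays allow. The suffix of this probe set marks probes that match more than 1 transcript, so Mt1 and near-identical transcripts cannot be told apart by it.

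Mt2 encodes the partner isoform, which is usually induced together with Mt1. Its probe set ran from 10.7 to 11.9 in mdx arrays, with a median of 11.3, and from 5.19 to 8.73 in normal arrays, with a median of 7.59. All 6 mdx arrays lay above all 6 normal arrays, by at least 1.99. The difference of 3.92 on the log2 scale (SE 0.52, interval 2.81 to 5.02) had a limma adjusted p of 0.000319 and an exact permutation p of 0.002165. The spread among normal arrays was wide, with an SD of 1.42 against 0.41 among mdx arrays.

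**Figure D1:**
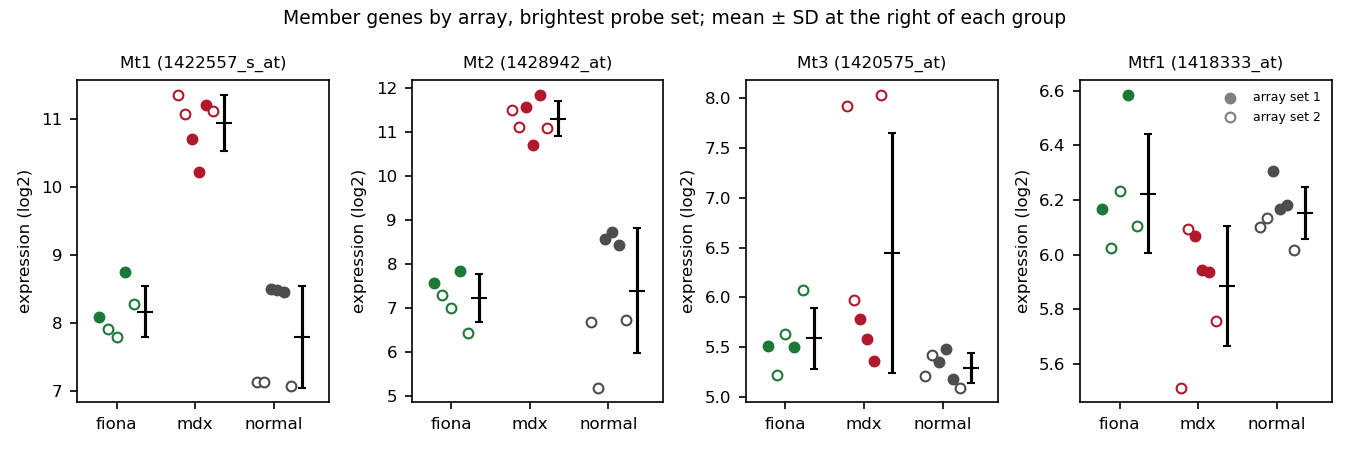
Expression on the log2 scale of the brightest probe sets of Mt1, Mt2, Mt3 and Mtf1, 1 point per array (filled, array set 1; open, array set 2), with the mean ± SD beside 5 fiona, 6 mdx and 6 normal arrays; the vertical axes differ and do not start at 0. All mdx points of Mt1 and Mt2 lie above all fiona and normal points, mdx arrays 1 and 6 stand alone for Mt3, and normal arrays split by array set for Mt1 and Mt2.

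The normal arrays divided for both genes. In normal muscle Mt1 was 8.46, 8.49 and 8.50 in the 3 arrays of set 1, against 7.08, 7.12 and 7.13 in the 3 arrays of set 2. Mt2 was 8.45, 8.58 and 8.73 in normal arrays of set 1 and 5.19, 6.69 and 6.74 in those of set 2. The sets were drawn from the arrays themselves, so no test is given for this gap. Among mdx arrays Mt2 averaged 11.4 in set 1 and 11.2 in set 2, a much smaller gap. The mdx difference was accordingly 2.23 in set 1 and 4.06 in set 2 for Mt1, and 2.80 in set 1 and 5.04 in set 2 for Mt2, each called within its set (limma adjusted p between 6.4e-05 and 0.0148). Whether the difference itself differs between the sets was not tested.

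The second Mt1 probe set lay at 3.50 to 3.61 in mdx arrays with a median of 3.52, and at 3.45 to 3.57 in normal arrays with a median of 3.54. It was 0.02 higher in mdx (interval -0.09 to 0.12, adjusted p = 0.831), and the groups overlapped. It stayed above the bacterial control level on every array but under the level of 1 log2 unit above that control, called dim here, so the 2 Mt1 probe sets did not show the same difference.

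Mt3, known chiefly from neurons, did not pass the test, and 2 arrays carried its difference. The mdx arrays 1 and 6 reached 7.92 and 8.04, and the other 4 mdx arrays lay between 5.36 and 5.98. The normal arrays ran from 5.09 to 5.48 with a median of 5.28, below 5 of the 6 mdx arrays. The mean difference was 1.15 (SE 0.42, interval 0.27 to 2.04, limma adjusted p = 0.157, exact permutation p = 0.0065). Both high arrays belong to set 2, and the difference was 0.24 in set 1 and 2.07 in set 2. The summed nerve and Schwann cell markers of mdx arrays 1 and 6, at 10.1 and 9.65, were the highest of the mdx arrays, within the range of 9.67 to 10.2 in normal arrays for array 1 and just under it for array 6, and their part in the Mt3 values was not tested. The highest nerve marker sum of all arrays, 10.4, stood in fiona array 2, with Mt3 at 5.22.

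Mtf1, the zinc sensor that drives Mt1 and Mt2, was not called. Its brighter probe set ran from 5.51 to 6.09 in mdx arrays, with a median of 5.94, and from 6.02 to 6.31 in normal arrays, with a median of 6.15. Of the mdx arrays, 4 lay below all normal arrays. The difference of -0.27 (SE 0.10, interval -0.49 to -0.05) had a limma adjusted p of 0.194 and an exact permutation p of 0.0108. With array weights estimated by limma the adjusted p was 0.0147, at a difference of -0.26. Under those weights 44.2% of all probe sets were called in mdx against normal, with 7383 of the 8999 calls lower. The second Mtf1 probe set lay at 2.60 to 2.65 in mdx and 2.61 to 2.71 in normal arrays, at or below the bacterial control level on all 17 arrays, so it showed no signal above background.

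Slc30a1, whose product ZnT1 exports zinc from the cell, was also dim. Its probe set ran from 2.98 to 3.21 in mdx arrays with a median of 3.07, and from 3.03 to 3.13 in normal arrays with a median of 3.09. The difference was -0.01 (interval -0.10 to 0.08, limma adjusted p = 0.870). All arrays lay above the control level, but at such a signal a change in the transcript may not show.

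In fiona muscle Mt2 lay within the range of normal muscle on all 5 arrays and Mt1 on 4 of 5. Mt1 of fiona array 4, at 8.75, lay above the highest normal array, at 8.50. That normal range spans both array sets. In set 2 the fiona arrays had Mt1 at 7.79 to 8.28, above the normal arrays at 7.08 to 7.13. In set 1 they had Mt2 at 7.58 to 7.84, below the normal arrays at 8.45 to 8.73. For Mt1 in set 1 and Mt2 in set 2 the fiona and normal arrays overlapped. Mt1 was 6.86-fold and Mt2 16.9-fold lower in fiona than in mdx muscle, again with no overlap of arrays. Of the 7 probe sets, 4 were called in fiona against mdx, the brighter Mt1 probe set and Mt2 lower and both Mtf1 probe sets higher. Over all probe sets 40.2% were called in this comparison, 34.1% higher and 6.04% lower, and the groups did not overlap for 34.0%, against 3 of the 7 here. Of all calls, 85.0% were higher in fiona, but 55.9% after each array was centred on its median, 71.7% after quantile normalization and 42.1% among the 10608 probe sets above the dim limit. Centring removed a shift of 0.10 between fiona and mdx arrays, which moves with the higher control level of the fiona arrays.

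On the brighter Mt1 probe set the fiona arrays 1 to 5 read 8.09, 7.90, 7.79, 8.75 and 8.28, against 10.2 to 11.3 in mdx arrays. Every fiona array lay below every mdx array, by 1.47 at the nearest. The difference was -2.78 (SE 0.32, interval -3.46 to -2.09, limma adjusted p = 0.000144), and the exact permutation p was 0.002165, the smallest that 462 regroupings of 5 and 6 arrays allow. Within the array sets the difference was -2.29 in set 1 and -3.18 in set 2.

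Mt2 showed the larger gap. Its fiona arrays 1 to 5 read 7.58, 7.31, 7.01, 7.84 and 6.44, against 10.7 to 11.9 in mdx arrays. The difference was -4.08 (SE 0.54, interval -5.24 to -2.92, limma adjusted p = 0.000494, exact permutation p = 0.002165), and it was -3.67 in set 1 and -4.33 in set 2. Without the female-pattern arrays only fiona array 4 is left, and the spread of a single array is then taken from the other groups. Mt2 was then -3.58 with an adjusted p of 0.104, past the threshold no longer, while Mt1 was -2.27 with an adjusted p of 0.0477.

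**Figure D2:**
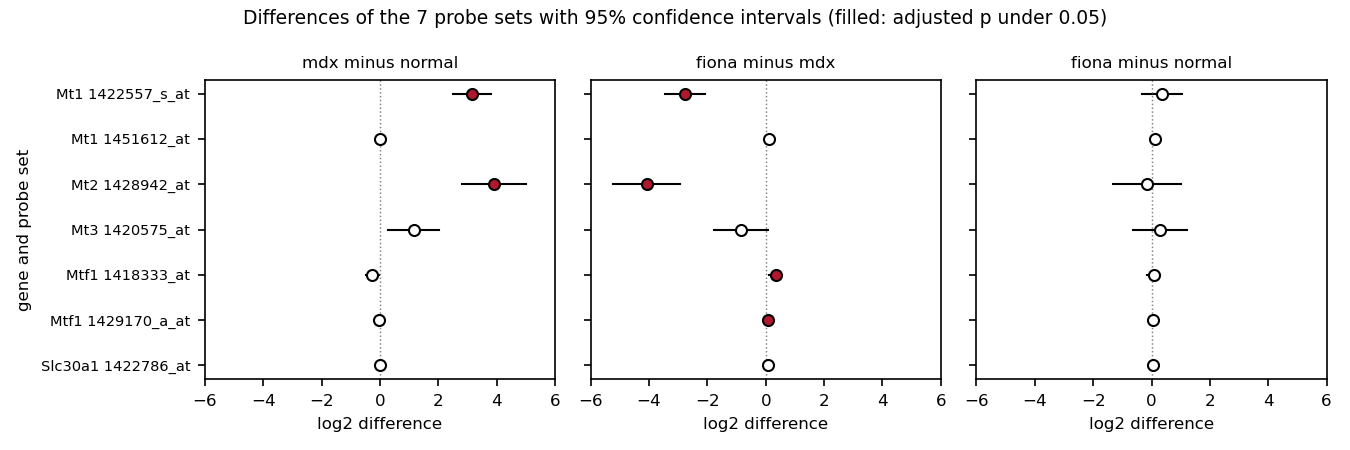
Log2 difference of each of the 7 probe sets with its 95% confidence interval in mdx minus normal, fiona minus mdx and fiona minus normal (filled: limma adjusted p under 0.05; horizontal axis in log2 units). The brighter Mt1 probe set and Mt2 lie at 3.14 and 3.92 in mdx minus normal, at -2.78 and -4.08 in fiona minus mdx, and within intervals that include 0 in fiona minus normal.

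Mtf1 was slightly higher in fiona than in mdx muscle, and that call did not hold widely. The brighter probe set read 6.17, 6.03, 6.23, 6.59 and 6.11 in fiona arrays 1 to 5, against 5.51 to 6.09 in mdx arrays. All but array 2 of the fiona arrays lay above all mdx arrays. The difference of 0.34 (SE 0.11, interval 0.11 to 0.57, limma adjusted p = 0.0242, exact permutation p = 0.0173) fell to 0.23 with an adjusted p of 0.173 once arrays were centred on their medians, and without fiona array 4 it was 0.25 with an adjusted p of 0.0567. The call of the dim Mtf1 probe set (0.08, adjusted p = 0.0147) rests on values at or below the control level and turned to -0.025 after centring and to -0.016 after quantile normalization.

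The remaining probe sets were not called. Mt3 read 5.51, 5.22, 5.64, 5.50 and 6.07 in fiona arrays 1 to 5, against 5.36 to 8.04 in mdx arrays, and the groups overlapped (difference -0.86, interval -1.78 to 0.07, adjusted p = 0.130). Slc30a1 lay at 3.08 to 3.31 in fiona and 2.98 to 3.21 in mdx arrays, a difference of 0.07 with an adjusted p of 0.236. The dim Mt1 probe set, at 3.54 to 3.89 in fiona arrays, differed from mdx by 0.10 with an adjusted p of 0.129.

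Set directly against normal muscle, fiona muscle gave 0 calls among the 7 probe sets, and 0.00491% of all probe sets, which is 1, were called by limma. At an unadjusted p under 0.05 there were 4401 probe sets. The groups did not overlap for 0 of the 7 probe sets and for 1.08% of all. For Mt1 the difference was 0.37 (interval -0.32 to 1.05, adjusted p = 0.497), and for Mt2 it was -0.16 (interval -1.32 to 1.00, adjusted p = 0.891). The intervals leave room for a change of about 1 log2 unit, so equality was not shown. Within the sets the Mt2 value ran from -0.88 in set 1 to 0.71 in set 2, and the Mt1 value from -0.06 to 0.88. Both comparisons with fiona use the same fiona arrays, and both with mdx the same mdx arrays.

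Mt1 and Mt2 moved together across arrays. Between their brightest probe sets Pearson's r was 0.80 over the 17 arrays after the group means were removed, with the array sets still in the data, and r was 0.96 before removal, where the difference between mdx and the other arrays enters. The Mt2 deviations gave r = -0.06 with those of Mt3 and r = 0.27 with those of Mtf1. These are descriptions of 17 arrays that share the 2 sets.

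The genes most like Mt2 over all arrays, out of 6781 genes compared, were C1qb, a complement gene of macrophages, Vim, which encodes the filament protein of mesenchymal cells, Serpinb6a, a protease inhibitor, Anxa4, a calcium-dependent membrane-binding protein, and S100a10, the partner of annexin A2. Their r values with Mt2 lay between 0.949 for S100a10 and 0.963 for C1qb. C1qb averaged 7.90 in fiona, 10.9 in mdx and 7.59 in normal muscle, and Vim averaged 11.4, 12.8 and 11.4. Once group means were taken out, the nearest genes were Xdh, which encodes xanthine dehydrogenase, Vim, Efemp1, Dhx40 and Slc43a3, with r between 0.849 and 0.905. Xdh did not share the group pattern, since it averaged 6.29 in fiona, 6.83 in mdx and 7.61 in normal muscle. In normal muscle Xdh was 8.06 to 8.63 in the arrays of set 1 and 6.31 to 7.23 in those of set 2, the division that Mt1 and Mt2 also showed.

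Markers of macrophages and of regenerating fibres were higher in the same arrays as Mt1 and Mt2. Of 19 macrophage markers, 15 were higher and 0 lower in mdx than in normal muscle, where 3.17% of all 12393 genes, each by its brightest probe set, were called higher and 1.33% lower. Their median difference was 2.74, against -0.04 over all genes. Mpeg1, a pore-forming protein of macrophages, was at 8.87 ± 0.64 in mdx and 3.52 ± 0.07 in normal muscle. In fiona against mdx 16 of the 19 were lower and 0 higher, where 33.5% of all genes were called higher and 6.88% lower, and 9 were lower without the female-pattern arrays. The median difference was -2.87, against 0.08 over all genes.

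The summed macrophage level ran from 9.66 to 10.8 in fiona, 13.0 to 13.9 in mdx and 8.97 to 10.2 in normal arrays, and Cd68, Cd14 and Itgam were at or below the control level on all fiona and normal arrays. Of 12 markers of regenerating muscle, 6 were higher and 0 lower in mdx than in normal muscle, and 7 were lower and 1 higher in fiona than in mdx muscle. Their summed level was 8.48 to 8.95 in fiona, 10.1 to 13.5 in mdx and 8.10 to 8.41 in normal arrays. Of 10 measured fibroblast markers, 3 were higher in mdx than normal and 8 lower in fiona than mdx. Over all genes, 3.17% were called higher and 1.33% lower in mdx against normal, and 33.5% higher and 6.88% lower in fiona against mdx. The counts of 7 and 8 lower in fiona each went down to 0 in at least 1 alternative setting. The part of macrophages, regenerating fibres and fibroblasts in the metallothionein values was not tested. In whole muscle more cells of a type and more RNA per cell cannot be told apart.

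Within the normal group the 2 signals parted through array 6 alone, the only normal array of female pattern. Normal arrays 3, 4 and 5 had a summed macrophage level of 9.81 to 10.2, and normal arrays 1, 2 and 6 had 8.97 to 10.2. The macrophage level thus overlapped where Mt1 and Mt2 did not. Normal arrays 1 and 2, at 9.64 and 8.97, lay below arrays 3, 4 and 5, as they did for Mt1 and Mt2. Normal arrays 3 and 6 had the same macrophage level of 10.2, but Mt1 at 8.50 and 7.08 and Mt2 at 8.58 and 6.74. Outside the normal group the macrophage level and the 2 genes went together in some arrays and not in others. The lowest macrophage level among mdx arrays, 13.0, was shared by arrays 2 and 4. Array 4 had the lowest mdx values of Mt1, 10.2, and of Mt2, 10.7, with the highest regeneration level, 13.5, whereas array 2 had both genes at 11.1 with the lowest regeneration level, 10.1. Among fiona arrays, array 4 had the highest macrophage level, 10.8, and also the highest Mt1, 8.75, and Mt2, 7.84.

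**Figure D3:**
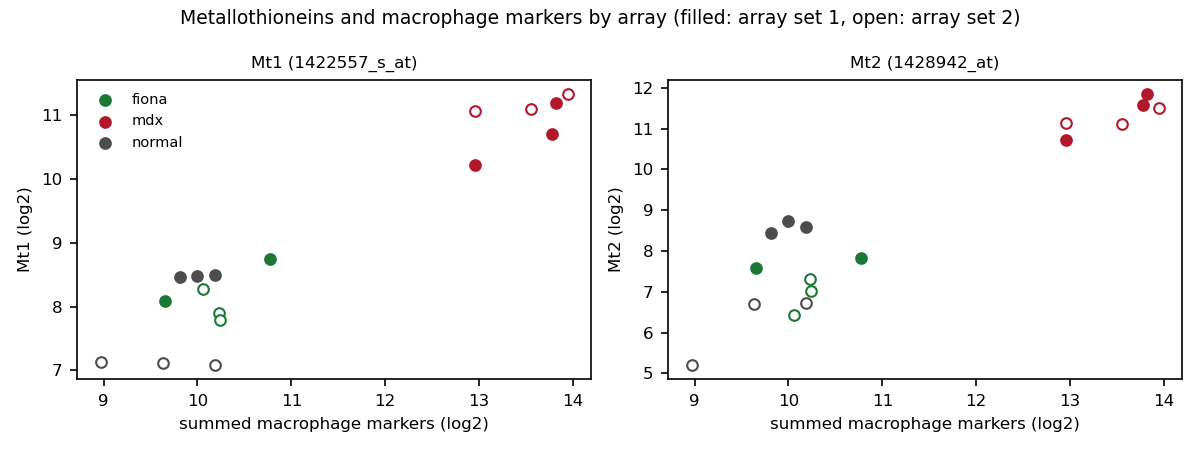
Mt1 (left) and Mt2 (right), each by its brightest probe set, against the summed level of 19 macrophage markers, both on the log2 scale, 1 point per array (filled, array set 1; open, array set 2). The 6 mdx arrays stand at the upper right with marker levels of 13.0 to 13.9, and the fiona and normal arrays lie at 8.97 to 10.8. The normal arrays of the 2 sets separate in Mt1 and Mt2, and their marker levels overlap through normal array 6 alone.

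Markers of other tissue components gave calls only between fiona and mdx muscle, where calls were common over all genes. In mdx against normal 0 genes were called in either direction among 10 endothelial, 11 mature fibre, 7 nerve and Schwann cell, 6 adipocyte, 8 epidermis and 3 erythroid markers that were measured. Over all genes 3.17% were called higher and 1.33% lower there, so lists this short would hold few calls. Between fiona and mdx the calls were all higher, with 0 endothelial, 1 mature fibre, 4 nerve and Schwann cell, 2 adipocyte, 5 epidermis and 1 erythroid marker, where 33.5% of all genes were called higher. Each of the counts above 0 went down to 0 in at least 1 alternative setting. Of the 5 epidermis markers, Krt1 and Krt15 lay at or below the bacterial control level on all arrays. In fiona against normal 0 genes of any list were called, as were 0.0% of all genes by their brightest probe set.

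No other measured zinc transporter was called in mdx against normal muscle, where few of all genes were called. Of 23 listed genes of the ZnT exporters and ZIP importers, 17 were measured. In mdx against normal muscle 0 were called higher and 0 lower. Over all genes 3.17% were called higher and 1.33% lower, so 0 calls among 17 genes is near that share. The median difference of the 17 was 0.11, against -0.04 over all genes. The nearest to a call was Slc39a6, the importer ZIP6. It ran from 4.42 to 6.29 in mdx arrays and from 4.19 to 4.61 in normal arrays, with mdx arrays 1 and 4 above 6 and mdx arrays 2 and 6 among the normal values. Its difference was 0.98 (SE 0.29, limma adjusted p = 0.0813), and it was called at 0.0394 among probe sets above the dim limit and at 0.0284 without mdx array 2.

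In fiona against mdx 2 zinc transporters were called higher and 3 lower, where 33.5% of all genes were called higher and 6.88% lower. The median of the 17 was 0.02. The 2 higher ones were Slc30a3, at 4.41 ± 0.18 in fiona and 4.04 ± 0.15 in mdx muscle (0.37, limma adjusted p = 0.0135), and Slc39a9 (0.09, adjusted p = 0.0143). Slc39a9 lay at or below the control level on all arrays. The 3 lower ones were Slc39a6, at 4.33 ± 0.07 in fiona and 5.28 ± 0.86 in mdx muscle (-0.95, limma adjusted p = 0.0246), and Slc30a5 and Slc30a6, whose products ZnT5 and ZnT6 form a dimer that carries zinc into the secretory pathway. Slc30a5 was at 5.02 ± 0.39 in fiona and 5.64 ± 0.41 in mdx (-0.62, adjusted p = 0.0207). Slc30a6 was at 4.58 ± 0.46 in fiona and 5.10 ± 0.28 in mdx (-0.52, adjusted p = 0.0456), and it lost its call after centring (adjusted p = 0.0701) and in 12 of the 17 fits with 1 array left out. With the replicate number as a block 0 zinc transporters were called, and without the female-pattern arrays Slc39a6 was -0.46 with an adjusted p of 0.473.

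**Figure D4:**
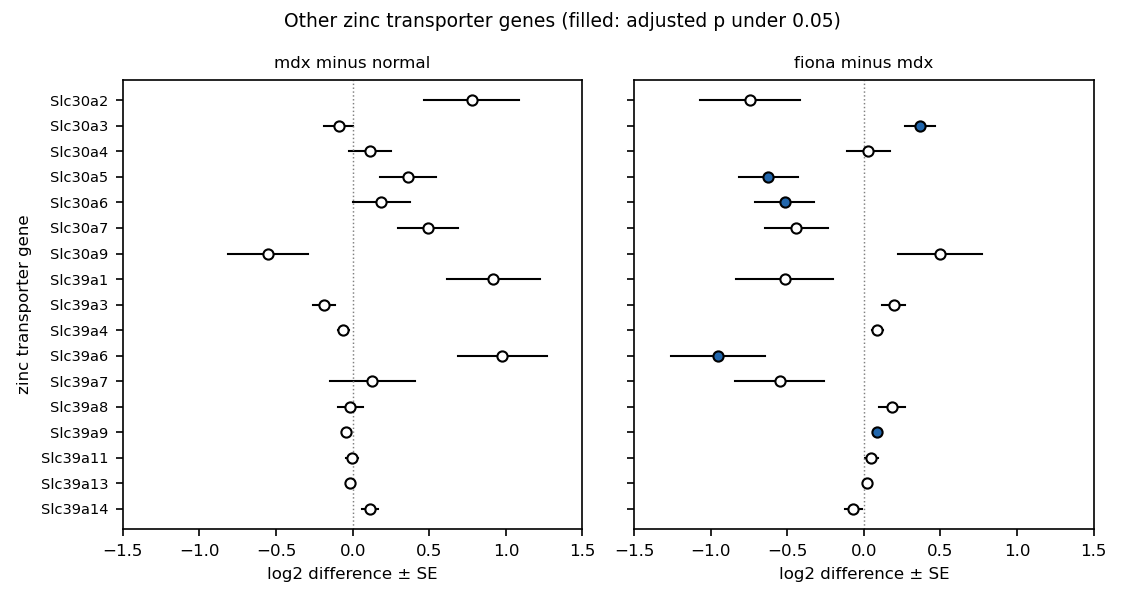
Log2 difference ± SE of the 17 measured zinc transporter genes, each by its brightest probe set, in mdx minus normal (left) and fiona minus mdx (right); filled points have a limma adjusted p under 0.05. No point is filled on the left. On the right Slc39a6, Slc30a5 and Slc30a6 are filled below 0, at -0.95, -0.62 and -0.52, and Slc30a3 and Slc39a9 above 0, at 0.37 and 0.09.

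Other metal genes gave few calls. Of 8 further genes linked to MTF1, 0 were called in mdx against normal, where 3.17% of all genes were called higher and 1.33% lower. Cebpa, a factor of fat and myeloid cells, was nearest to a call at 1.00 (limma adjusted p = 0.184). It lay above the control level on 3 of 6 mdx arrays and 0 of 6 normal arrays. In fiona against mdx 3 were higher and 0 lower, Selenow at 0.28, Pgf at 0.27 and Mt4, the skin metallothionein, at 0.26, where 33.5% of all genes were called higher. The Selenow call held in 4 of 14 alternative settings and was lost in 11 of the 17 fits with 1 array left out, and the calls of Pgf and Mt4 held in 5 and 8 of 13 settings. Pgf, at 3.40 in fiona and 3.12 in mdx muscle, and Mt4, at 3.25 and 2.99, were both dim.

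Of 11 measured copper genes, 0 were called in mdx against normal, where 3.17% of all genes were called higher and 1.33% lower. The ferroxidase gene Cp was nearest to a call (-0.44, limma adjusted p = 0.107). Between fiona and mdx muscle 1 was higher and 1 lower, where 33.5% of all genes were called higher and 6.88% lower. The lower one was Atox1, the copper chaperone, at 7.33 ± 0.45 in fiona and 8.15 ± 0.63 in mdx muscle (-0.82, adjusted p = 0.0255). The higher one was the copper pump gene Atp7b (0.26, adjusted p = 0.0158).

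Of 13 measured iron genes, 1 was higher and 0 lower in mdx than in normal muscle, against 3.17% and 1.33% of all genes. The higher one was Hfe, a regulator of iron uptake, at 7.75 ± 0.44 in mdx and 6.43 ± 0.74 in normal muscle (1.32, adjusted p = 0.0333). This call was lost in 7 of the 17 fits with 1 array left out. The fiona arrays had 1 iron gene higher than mdx, the ferroxidase gene Heph (0.40, adjusted p = 0.0202), and 2 were lower, against 33.5% and 6.88% of all genes. The lower 2 were Slc25a37, the iron importer of mitochondria (-0.59, adjusted p = 0.0130), and Fth1, the ferritin heavy chain (-0.30, adjusted p = 0.0130).

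Calls among genes of the other inputs to Mt1 and Mt2 were set beside the shares over all genes. Over all genes, 3.17% were called higher and 1.33% lower in mdx against normal, and 33.5% higher and 6.88% lower in fiona against mdx. Of 16 measured interleukin-6 and STAT3 targets, 2 were higher and 0 lower in mdx than in normal muscle, with a median difference of 0.00. Serpina3n, a secreted protease inhibitor, ran from 4.85 to 7.86 in mdx arrays and from 2.81 to 3.30 in normal arrays, and it was 11.8-fold higher (log2 difference 3.56, adjusted p = 2.56e-05). Its normal and fiona values were dim, and 5 of 6 normal arrays lay above the control level, so the fold depends on that background. Socs3, the feedback inhibitor of this pathway, was at 6.39 ± 0.86 in mdx and 4.99 ± 0.50 in normal muscle (1.40, adjusted p = 0.0374), a call lost in 10 of the 17 fits with 1 array left out. The fiona arrays had Serpina3n at 3.06 to 3.28, below every mdx array (-3.45, adjusted p = 8.45e-05), and Cebpb was lower (-0.74, adjusted p = 0.0434), a call that held in 5 of 14 alternative settings and was lost in 9 of the 17 fits with 1 array left out. The higher calls were also 2, among them the acute-phase gene Saa3 (0.27, adjusted p = 0.0207).

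Of 18 measured glucocorticoid-induced genes, 1 was higher and 2 lower in mdx than in normal muscle, against 3.17% and 1.33% of all genes. The median difference of the 18 was -0.50. The higher one was Cdkn1a, the cell-cycle inhibitor p21, at 8.04 ± 0.50 in mdx and 6.63 ± 0.21 in normal muscle (1.41, adjusted p = 0.000791), which responds to many signals besides glucocorticoids. The lower ones were Pdk4, a kinase that restrains glucose oxidation (-1.63, adjusted p = 0.0252), and Foxo1, a transcription factor of atrophy (-0.80, adjusted p = 0.0478), and each of these calls was lost in several of the fits with 1 array left out, 7 for Pdk4 and 14 for Foxo1. Against mdx muscle, fiona muscle had 0 of the 18 higher and 3 lower, Angptl4 (-2.19, adjusted p = 0.0130), Cebpd (-1.67, adjusted p = 0.0180) and Cdkn1a (-1.01, adjusted p = 0.0130). Among all genes 33.5% were called higher and 6.88% lower in that comparison. Angptl4 lay above the bacterial control level on only 3 of 5 fiona arrays, so the size of its difference depends on that background.

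Of 13 measured antioxidant genes of the Nrf2 pathway, 0 were higher and 1 lower in mdx than in normal muscle, against 3.17% and 1.33% of all genes. The lower one was Me1, malic enzyme, at 7.87 ± 0.75 in mdx and 9.30 ± 0.21 in normal muscle (-1.43, adjusted p = 0.00685). Against mdx muscle, 4 were higher in fiona, among them Me1 (0.78, adjusted p = 0.0434) and Keap1, the inhibitor of Nrf2 (0.50, adjusted p = 0.0480), and 1 was lower, Nfe2l2, which encodes Nrf2 itself, at 7.68 ± 0.63 in fiona and 8.68 ± 0.45 in mdx muscle (adjusted p = 0.0146). Of all genes 33.5% were called higher in this comparison, and the calls of Me1 and Keap1 were lost in 11 and 13 of the 17 fits with 1 array left out. Hmox1, a heme-degrading enzyme induced by the same stresses as metallothioneins, was at 4.43 ± 0.66 in mdx and 3.99 ± 0.07 in normal muscle and was not called (0.44, adjusted p = 0.321).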

How the data were processed

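Expression was measured on 17 Affymetrix arrays. The authors deposited normalized log2 values for each probe set. RMA and GCRMA are both named in the submitters' processing notes. Which of the 2 methods gave the deposited values, and the genome build, are not given in the sources used here. Of 22690 probe sets, 64 controls, 691 with several symbols and 1555 with none were left out. No pair of arrays was identical.

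A single fit of 3 group means over all arrays was made with limma 3.58.1 in R 4.3.3 (lmFit, eBayes), with Benjamini-Hochberg adjustment over 20380 probe sets and calls at an adjusted p under 0.05. Each of the 7 probe sets also had a two-sided exact permutation test. The fit was tested on simulated data. For lists, the probe set of highest mean stood for its gene. Named list genes were up to 3 called genes with the largest change per list and comparison, or the one nearest to a call, with exceptions named as such. Of list genes, Hmox1 was named after its value was seen. The genes most like Mt2 were the 5 of highest Pearson correlation among bright genes. Summed marker levels are log2 of the summed linear values. Members and lists were chosen with earlier results of these data known. The labels call the samples biological replicates and give no batch.

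Same-numbered mdx and normal arrays deviated together from their group means (r between 0.10 and 0.61 in 6 pairs), while fiona pairs ran from -0.51 to 0.48. The main fit and the permutation tests did not use this pairing. The replicate number entered only as a block in alternative fits. Alternatives were centring, quantile normalization, a filter on dim probe sets, other summaries per gene, blocks, weights, and arrays left out.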

Additional observations from a re-analysis of the deposited data

Results flagged for a closer look

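In each of 21 groups of arrays (7 probe sets in 3 groups), the array at either end was compared with the rest, and 3 groups had an array set apart from the others, where chance gives about 1 in 20. All 3 concerned dim probe sets. The dim Mt1 probe set read 3.89 in fiona array 5, against 3.54 to 3.60 in the other fiona arrays, and Slc30a1 read 3.31 in the same array, against 3.08 to 3.14. That array also had the highest bacterial control level of all arrays, 2.99. The dim Mt1 probe set read 3.61 in mdx array 5, against 3.50 to 3.53 in the other mdx arrays. No array of the brighter Mt1 probe set, Mt2, Mt3 or Mtf1 was set apart in this way.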

How the results depend on the processing

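The brighter Mt1 probe set and Mt2 kept their direction and their call in mdx against normal in all alternatives run, from 1.58 to 4.06 for Mt1 and from 2.80 to 5.04 for Mt2. Leaving out 1 array in turn gave 2 called probe sets each time in mdx against normal, 3 to 4 in fiona against mdx and 0 in fiona against normal. With array weights 4 probe sets were called in mdx against normal, the 2 of Mtf1 in addition. Only 2 probe sets were called in fiona against mdx after centring, after the filter on dim probe sets, with the replicate block, in array set 2 alone and without the female-pattern arrays. Mt2 lost its call in fiona against mdx in the last of these, at -3.58. The dim Mtf1 probe set reversed to -0.025 after centring and -0.016 after quantile normalization. With the replicate number as a block (replicate block), Mt1 was 3.14 in mdx against normal with an adjusted p of 0.00101, and no member call changed there, while the calls over all probe sets in fiona against mdx went down to 598 from 8187. In a fit of the mdx and normal arrays alone with that block, added after the data were seen, the Mt1 adjusted p was 0.0133. The cause of these changes was not tested. Probe sets near the bacterial control level (Slc30a1, one of Mt1, one of Mtf1) limit what can be seen of those genes. The counts over all probe sets moved by more than 1.5 times in fiona against mdx, to 2381 with centring, 2899 with quantile normalization, 1422 with the dim filter, 113 in set 2 alone and 2568 without the female-pattern arrays. In mdx against normal they moved to 1775 with array set as a block, 4740 and 356 in sets 1 and 2 alone, 499 without the female-pattern arrays and 8999 with array weights, from 826. In fiona against normal they ran from 1 to 1366 without fiona array 2.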

Other observations

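Mt1, Mt2, Mt3 and Mt4 lie side by side on mouse chromosome 8, in the order Mt4, Mt3, Mt2, Mt1, followed by Nup93, a nuclear pore gene. The neighbours were chosen for their position, and those named here after their values were seen. Nup93 averaged 5.66 ± 0.61 in fiona, 6.68 ± 0.54 in mdx and 5.49 ± 0.28 in normal muscle, with a difference of 1.19 in mdx against normal (limma adjusted p = 0.0215) and of -1.02 in fiona against mdx (adjusted p = 0.0154). It lost the first call without normal array 4 (adjusted p = 0.0524). Nudt21, a gene of messenger RNA 3' end formation before the cluster, averaged 6.84 ± 0.46, 7.83 ± 0.51 and 7.01 ± 0.41 in the same order and was called only in fiona against mdx (-0.99, adjusted p = 0.0143). Of the genes between them, Bbs2 was not called in either comparison, Mt4 was called only in fiona against mdx and Mt3 in neither, and Ogfod1 was not measured by a probe set of its own. Further out, Gnao1 was called in the other direction in fiona against mdx (0.60, limma adjusted p = 0.01395). Slc12a3, Herpud1 and Cpne2 were called in neither comparison. Over all genes, 3.17% were called higher and 1.33% lower in mdx against normal, and 33.5% higher and 6.88% lower in fiona against mdx.

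The genes most like Mt3 over the 17 arrays, looked up after its values were seen, were Tsc22d4, Arrb2, Znhit2, Necap2 and Smap2, with r between 0.899 and 0.963. Tsc22d4, a transcription regulator, read 6.34 in mdx array 1 and 6.59 in mdx array 6, against 5.23 to 5.60 in the other mdx arrays and 5.16 to 5.33 in all fiona and normal arrays. The 2 arrays that stood out for Mt3 thus stood out for this gene too.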
